A study of Mus musculus with 5 samples.

Results

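The 5 RNA-seq libraries of this mouse series carry 2 different names for embryos made by nuclear transfer. 3 were labelled NT and 2 were labelled SCNT, and all of the libraries in the series belong to one or the other set. The NT set held untreated embryos, H3.3 knockdown embryos, and embryos with both the knockdown and H3.3 mRNA. The SCNT set held embryos given luciferase and embryos with the H3.3 knockdown and H3.2 mRNA. Every library came from embryos at the 4-cell stage of strain B6D2F1, with 1 library per treatment. The donor cell, the embryos per library and the dates of collection are not given in the sources used here, nor is what distinguished the names. The treatment tag of the H3.2 mRNA library names H3.3 mRNA instead, and its title was followed here. Genes were kept where the mean over the 5 libraries was at least 1 FPKM (sequenced fragments per kilobase of transcript and per unit of mapped depth), which left 13144 of 22026 genes. A gene is called separated here where the lowest library of one set lay at least 1 above the highest library of the other on the log2(FPKM + 1) scale, a gap of 2-fold; 703 genes, 5.35% of those tested, were separated.

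Nuclear transfer places the nucleus of a donor cell in an oocyte whose own chromosomes have been removed, and somatic cell nuclear transfer (SCNT) is the form that uses a body cell. The oocyte's stored RNA and proteins carry the first divisions, most maternal RNA is cleared around the 2-cell stage, and the transplanted genome has to take over transcription. H3.3, encoded by H3f3a and H3f3b, is the histone H3 variant placed in chromatin outside of DNA replication, whereas H3.2 is a form made for replication. The treatments differ within each set, so the label sets and single treatments cannot be told apart for any one library, and the spread within a set includes treatment. In bulk embryos, fewer cells of a type and less RNA per cell cannot be told apart either.

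Some genes of early mouse embryos were high in all libraries and others were not. Obox6, a homeobox gene of the early embryo, ranged between 3477 and 5437 FPKM in NT libraries, against 4669 and 2504 FPKM in SCNT libraries. Dppa3, a maternal factor that protects DNA methylation of the egg's genome, ranged between 8550 and 19535 FPKM in NT libraries, against 10257 and 4818 FPKM in SCNT libraries. Nanog, a regulator of the later inner cell mass, had 21.8, 0 and 9.59 FPKM in untreated, knockdown and H3.3 mRNA embryos of the NT set, against 52.1 and 0.990 FPKM in luciferase and H3.2 mRNA embryos of the SCNT set, and Sox2 was listed at 0 in every library but the untreated one. The targeted genes were lower in all 3 libraries with the knockdown than in the 2 without it, in both sets. H3f3a and H3f3b together summed to 5266 FPKM in untreated, 664 in knockdown and 467 in H3.3 mRNA embryos of the NT set, against 5734 in luciferase and 420 in H3.2 mRNA embryos of the SCNT set. The added H3.3 mRNA was not visible in this sum. Between the libraries without knockdown the genes differed in opposite directions, with H3f3a at 783 FPKM in untreated NT, against 3503 in luciferase SCNT embryos, and H3f3b at 4484 FPKM in untreated NT, against 2230 in luciferase SCNT embryos. Sequencing depth is unknown for files of FPKM, and a gene at exactly 0 is described as listed at 0.

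The 2 label sets also differed in how their files were written and in how many genes they list above 0. All 22026 values carried 2 decimals in both SCNT files, against 9353 in the untreated, 9472 in the knockdown and 10137 in the H3.3 mRNA file of the NT set. Genes above 0 numbered 10443 in untreated, 10496 in knockdown and 11280 in H3.3 mRNA embryos of the NT set, against 12300 in luciferase and 12261 in H3.2 mRNA embryos of the SCNT set, so the sets did not overlap. The summed FPKM did overlap, at 3044067 to 3578517 in NT libraries against 3418875 and 2467002 in SCNT libraries. The part that the file format or the number of genes above 0 plays in the separations described here was not tested.

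The libraries did not form 2 groups by label over all genes. The 3 pairs inside the NT set had 3472 to 4519 genes at least 4-fold apart, the pair inside the SCNT set had 2662, and the 6 pairs across the sets had 2762 to 4849. The H3.3 mRNA library of the NT set differed at 2791 genes from the luciferase library and at 2762 genes from the H3.2 mRNA library. It differed at more genes from its own set, with 4519 against the untreated and 3472 against the knockdown library. The untreated library was the one farthest from every other library by this count. Pearson correlations over the same genes, which share their libraries and are not independent, were 0.751 to 0.803 within NT, 0.829 within SCNT and 0.740 to 0.835 across the sets.

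**Figure D1:**
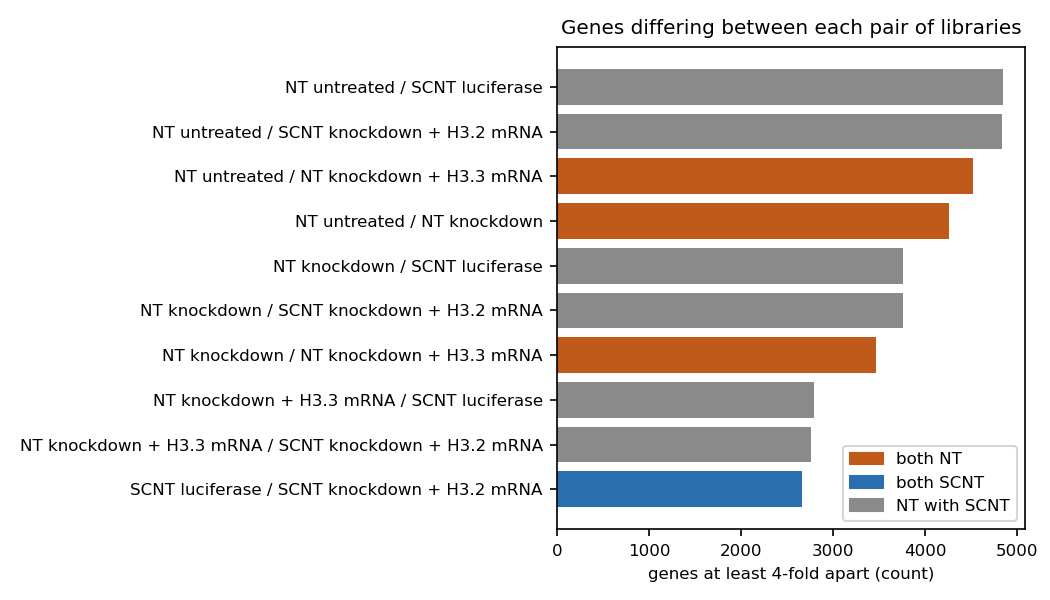
Number of genes at least 4-fold apart, of the 13144 tested, for each of the 10 pairs of libraries; orange bars are pairs within the NT set, the blue bar is the SCNT pair and grey bars join an NT to an SCNT library. The NT library with H3.3 mRNA had 2791 and 2762 such genes against the SCNT libraries, fewer than against either of the other NT libraries.

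At the mean of 1 FPKM used here, separated genes were more often higher in SCNT than in NT embryos. In all, 190 genes (1.45%) were separated with NT higher and 513 (3.90%) with SCNT higher. Without any minimum gap, 1115 genes (8.48%) had all NT values above both SCNT values and 1569 (11.9%) had both SCNT values above all NT values, 20.4% in either direction. At a gap of at least 2 on the log2 scale, 42 (0.32%) had NT higher and 228 (1.73%) had SCNT higher. By limma, fitted over all 13144 genes, 0 genes passed an adjusted p of 0.05 in either direction, and the smallest adjusted p was 0.869. At an unadjusted p under 0.05, limma listed 327 genes with NT higher and 327 with SCNT higher, 2.49% each. The separations below are therefore descriptions of 5 libraries, not tested differences between kinds of embryo. The median NT minus SCNT difference of all genes was -0.23 on the log2 scale, and list medians are to be read against it.

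Level told the directions apart. Among genes with a mean of 1 to 10 FPKM, 19 of 3197 (0.594%) were separated with NT higher and 363 (11.4%) with SCNT higher. Among the 3146 genes with a mean of 200 FPKM or more, 53 (1.69%) were separated with NT higher and 2 (0.0640%) with SCNT higher. Most SCNT-higher genes were ones that some library lists at 0: 444 of the 513, of which 292 were at 0 in every NT library. Of the 190 NT-higher genes, 140 were above 0 in every library and 26 were at 0 in both SCNT libraries. Over all genes in the files, 36 were above 0 in every NT library and at 0 in both SCNT libraries, against 385 the other way round. With only the 8520 tested genes that were above 0 in every library, the direction of the imbalance changed, with 140 NT-higher and 69 SCNT-higher genes. It also changed where the mean had to reach 10 FPKM, with 171 NT-higher and 150 SCNT-higher genes.

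**Figure D2:**
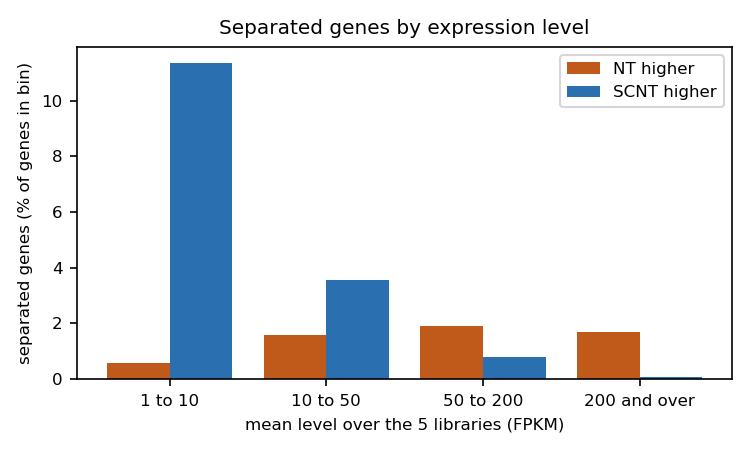
Separated genes as a percentage of the genes in each class of mean FPKM, with NT higher in orange and SCNT higher in blue. SCNT-higher genes fell mostly in the lowest class, at 11.4% of its genes, and NT-higher genes were at 1.58% to 1.89% in each of the upper 3 classes.

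Transcript length and base composition differed between the directions too. The median annotated transcript length (GENCODE, known for 98.9% of tested genes) was 1999 bases for the NT-higher separated genes and 3631 for the SCNT-higher ones, against 3184 for all genes tested. The order was the same among genes with a mean of 50 FPKM or more and no overlap, at 2021 bases for NT-higher and 3927 for SCNT-higher genes, against 2884 for all genes at that level. Median GC content was 53.8% for NT-higher and 49.1% for SCNT-higher separated genes, against 50% for all. Across the 6471 genes at 50 FPKM or more with a length, the difference and the length had a Spearman rho of -0.34, a description over genes that are not independent. With the length and GC trend removed, 1699 genes had NT higher and 1185 had SCNT higher without overlap, an imbalance opposite to that of the values as deposited. Genes separated by the 2-fold gap kept the direction of their imbalance, at 211 with NT higher and 364 with SCNT higher. What part length plays in the lists below was not tested beyond the fits with its trend removed.

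MicroRNA and small nucleolar RNA genes had the widest gaps of all. The mature sequences of Mir546 and Mir294 are shown, with that of Mir719, a separated microRNA gene with a narrower gap of 1.96 that was added after its values were seen. The seed, bases 2 to 8, is in capitals, because the seed chooses a microRNA's targets and shows that no seed was shared between the genes higher in NT and the gene higher in SCNT. They are from RefSeq, with positions on GRCm38.p6 and not on the mm9 build of the files: miR-546 at chr10:126998471-126998486 on the plus strand, miR-719 at chr14:60228873-60228894 on the minus strand, and the arms of miR-294 at chr7:3220655-3220676 and chr7:3220691-3220712 on the plus strand.
mmu-miR-546: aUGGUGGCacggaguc
mmu-miR-719: aUCUCGGCuacagaaaaauguu
mmu-miR-294-5p: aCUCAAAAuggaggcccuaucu
mmu-miR-294-3p: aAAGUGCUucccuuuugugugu

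Reads of 51 bases are longer than these mature forms, so the values belong to the annotated gene bodies. Mir546 had 297 FPKM in untreated, 95.6 in knockdown and 179 in H3.3 mRNA embryos of the NT set and was listed at 0 in both SCNT libraries. Mir719 had 276, 248 and 479 FPKM in the same NT libraries, was listed at 0 in the luciferase library and had 63.1 FPKM in the H3.2 mRNA library. Mir294, whose 3p arm carries the seed of the embryonic stem cell microRNAs, was listed at 0 in every NT library and had 301 FPKM in luciferase and 135 FPKM in H3.2 mRNA embryos. Of the other 6 genes of its cluster, Mir290 to Mir295, only Mir293 was above 0, at 161 FPKM in the H3.2 mRNA library. No cluster member was thus above 0 in an NT library, and a single member was above 0 in both SCNT libraries.

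The small nucleolar RNAs followed the direction of Mir294. These H/ACA RNAs guide pseudouridylation of other RNAs. Snora33 was listed at 0 in every NT library, against 145 FPKM in luciferase and 296 FPKM in H3.2 mRNA embryos. Snora41 was likewise at 0 in the NT set, against 232 and 75.7 FPKM in the same SCNT libraries, and Snora3 at 0, against 125 and 78.0 FPKM. Of the 51 small RNA genes tested, 3 (5.9%) had all NT values above both SCNT values and 4 (7.8%) the reverse, against 8.48% and 11.9% of all genes. The named genes are thus few among their kind. FPKM divides by a length of 84 bases for Mir294 and 129 to 132 bases for these snoRNAs, so 1 read weighs more here than in any long gene, and no count of reads can be given.

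Among the protein-coding genes above 0 in every library, Rps23, a protein of the small ribosomal subunit, had the widest gap. It had 120 FPKM in untreated, 155 in knockdown and 76.8 in H3.3 mRNA embryos of the NT set, against 0.220 FPKM in luciferase and 0.180 FPKM in H3.2 mRNA embryos of the SCNT set. The NT minus SCNT difference was 6.57 on the log2 scale (limma SE 1.33, adjusted p = 0.869). Rps23 stood at rank 82 of 86 cytosolic ribosomal protein genes by mean level, where the median of the others was 1037 FPKM. A ribosomal protein gene this low beside its family can share reads with near-identical copies, and its value is uncertain for that reason.

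The next widest NT-higher gaps belonged to genes of varied roles. Ndufs5, a subunit of respiratory complex I, had 400 FPKM in untreated, 1048 in knockdown and 429 in H3.3 mRNA embryos of the NT set, against 71.3 and 53.5 FPKM in luciferase and H3.2 mRNA embryos of the SCNT set. Its difference of 3.17 on the log2 scale had a limma SE of 0.64 and an adjusted p of 0.869. Pvrl4, the adhesion molecule nectin-4, had 136, 52.6 and 80.3 FPKM in the NT libraries in the same order, against 2.81 and 5.26 FPKM in the SCNT libraries. In each of these genes every NT library lay well above the higher SCNT library, and the knockdown library was the highest of its set for Ndufs5 and the lowest for Pvrl4. Pglyrp1, which recognises bacterial peptidoglycan, had 612, 170 and 187 FPKM in the NT libraries, against 24.1 and 25.3 FPKM in the SCNT libraries. Hnrnpa0, an RNA-binding protein, had 692, 115 and 118 FPKM in the NT libraries, against 23.1 and 19.4 FPKM in the SCNT libraries. Both stood highest in untreated embryos, and the other NT libraries were close to each other.

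Ripk1, a kinase of death receptor signalling, was among the most even of the NT-higher genes within each set. It had 61.7 FPKM in untreated, 45.9 in knockdown and 57.2 in H3.3 mRNA embryos of the NT set, against 9.18 and 8.83 FPKM in luciferase and H3.2 mRNA embryos of the SCNT set. Gdpd5, a glycerophosphodiester phosphodiesterase, had 88.7, 67.4 and 54.9 FPKM in the NT libraries, against 9.64 and 3.77 FPKM in the SCNT libraries. Usp35, a deubiquitinase, was less even, with 246, 20.3 and 32.7 FPKM in the NT libraries, against 2.74 and 3.73 FPKM in the SCNT libraries. The remaining NT-higher genes above 0 everywhere with wide gaps were Apoo-ps, Tpt1p, Raver1-fdx1l, Fbxo27, Xlr4c, Tmem184b and Npcd, with gaps of 2.10 to 2.63 on the log2 scale. Of these, Apoo-ps, Tpt1p, Raver1-fdx1l and Xlr4c lost the 2-fold gap with a pseudocount of 10. Apoo-ps is a pseudogene. Pseudogenes were 5 of the 190 NT-higher (2.63%) and 2 of the 513 SCNT-higher (0.390%) separated genes, against 1.26% of all genes tested. That contrast rests on few genes. Where 2 near-identical sequences exist, the split of reads between them is uncertain.

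A handful of NT-higher genes were listed at 0 in SCNT embryos. Arl2bp, which binds the small GTPase ARL2, had 15.8 FPKM in untreated, 78.1 in knockdown and 42.4 in H3.3 mRNA embryos of the NT set and was at 0 in both SCNT libraries. Purg, a single-stranded nucleic acid binding protein, had 23.7, 29.8 and 17.9 FPKM in the NT libraries and was also at 0 in both SCNT libraries. Ift27, a small GTPase of intraflagellar transport, had 427, 180 and 91.0 FPKM in the NT libraries, against 4.94 FPKM in the luciferase and 0 in the H3.2 mRNA library.

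On the SCNT-higher side, genes of the spindle and centrosome recurred among the widest gaps above 0. Aspm, which works at the spindle pole, had 1.94 FPKM in untreated, 2.36 in knockdown and 6.96 in H3.3 mRNA embryos of the NT set, against 26.1 FPKM in luciferase and 41.5 FPKM in H3.2 mRNA embryos of the SCNT set. Cdk5rap2, a centrosomal protein, had 6.60, 9.77 and 7.10 FPKM in the NT libraries, against 31.3 and 32.8 FPKM in the SCNT libraries. Ckap2l, a spindle-associated protein, had 35.9, 35.4 and 32.4 FPKM in the NT libraries, against 137 and 170 FPKM in the SCNT libraries. These 3 were chosen from the 15 widest gaps after their values were seen, and the list of mitotic genes, given further on, was not separated as a whole. Ckap2l and Cdk5rap2 were nearly even within the sets, whereas Aspm ranged more than 3-fold among the NT libraries. Ckap2l had a difference of -2.11 on the log2 scale (limma SE 0.83, adjusted p = 0.869).

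Pcnx, the gene with the widest SCNT-higher gap above 0, had 1.09 FPKM in untreated, 1.85 in knockdown and 4.03 in H3.3 mRNA embryos of the NT set, against 33.4 and 37.4 FPKM in luciferase and H3.2 mRNA embryos of the SCNT set. Setd4, a SET-domain protein methyltransferase, had 22.6, 28.2 and 33.4 FPKM in the NT libraries, against 133 and 208 FPKM in the SCNT libraries. Elf4, an ETS-family transcription factor, had 12.2, 8.55 and 4.99 FPKM in the NT libraries, against 49.0 and 50.6 FPKM in the SCNT libraries. In all of these both SCNT libraries lay above the highest NT library. They were close to each other for Pcnx and Elf4 and further apart for Setd4. Ak4, a mitochondrial adenylate kinase, had 74.0, 36.8 and 72.7 FPKM in the NT libraries, against 252 and 221 FPKM in the SCNT libraries. Mtap, an enzyme of methionine salvage, had 4.68, 10.7 and 5.47 FPKM in the NT libraries, against 41.1 and 99.1 FPKM in the SCNT libraries. Lpin2, a phosphatidate phosphatase, had 1.82, 6.94 and 4.64 FPKM in the NT libraries, against 27.5 and 76.3 FPKM in the SCNT libraries. Fam169a, Tbc1d9b, Ing5, Narg2, Minpp1 and Fam117b completed the 15 widest, with gaps of -1.94 to -1.59. Hspb9, a small heat shock protein of testis, was listed at 0 in every NT library, against 49.1 and 42.9 FPKM in the SCNT libraries.

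**Figure D3:**
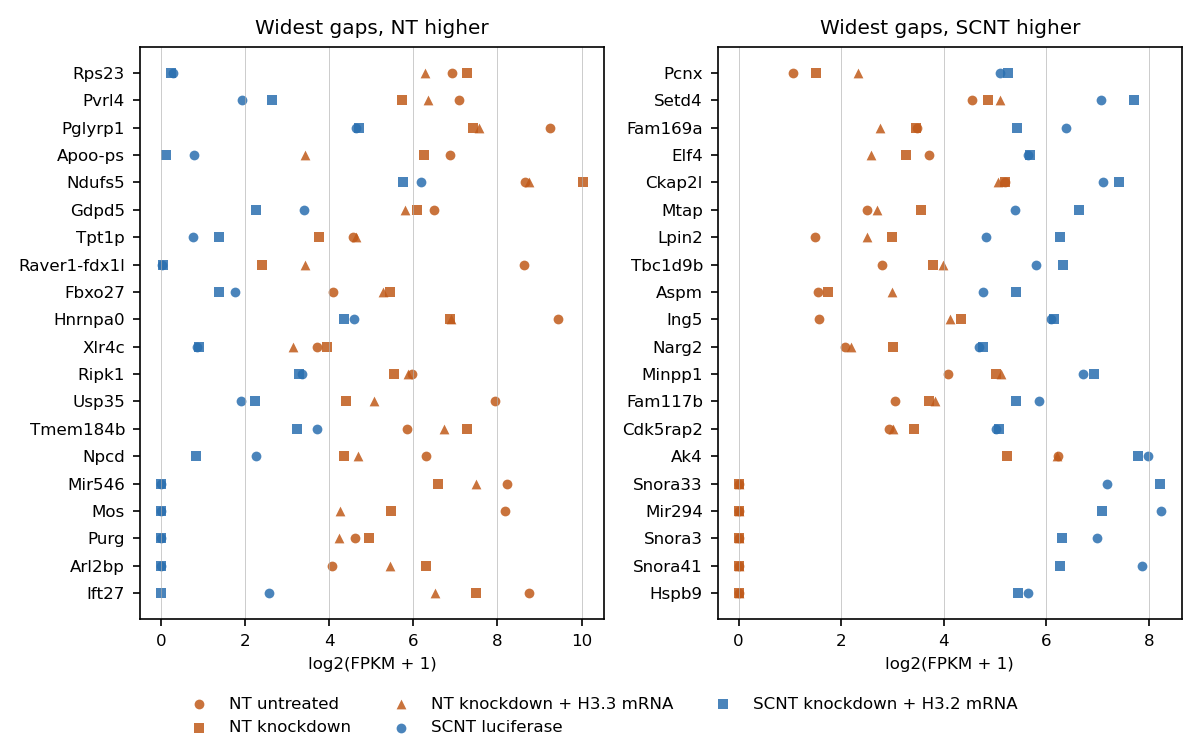
Values in every library, as log2(FPKM + 1), of the 20 genes with the widest gaps in each direction, 15 above 0 in every library and 5 listed at 0 in at least 1; orange marks are NT libraries, blue marks are SCNT libraries and the shape gives the treatment. In each row the orange and blue marks do not overlap, a property by which the genes were chosen.

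The H3.3 mRNA library was the NT library nearest the SCNT set at more of the separated genes than either of the other NT libraries. It was the lowest NT library at 96 of the 190 NT-higher genes, with the untreated library lowest at 50 and the knockdown library at 44. It was the highest NT library at 105 of the SCNT-higher genes, with the untreated library highest at 62, the knockdown library at 54 and the rest tied at 0. Without it, the separated genes numbered 622 with NT higher and 1398 with SCNT higher, and with fewer libraries any count can only grow.

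Oocyte and maternal-effect genes, whose transcripts the egg stores, had more members higher in NT than in SCNT libraries. Of 57 tested, 15 (26.3%) had all NT values above both SCNT values and 2 (3.50%) the reverse, against 8.48% and 11.9% of all genes. Their median difference was 0.67 on the log2 scale, against -0.23 for all genes, and it kept that side of the all-gene median under quantile normalization, median-of-ratios scaling and removal of the length and GC trend. Its size rested on single libraries: the median was 0.14 without the luciferase library (18 genes NT higher and 15 SCNT higher), 0.21 without the untreated library and 1.74 without the H3.2 mRNA library. The gaps were mostly narrow, since 2 of the 15 were separated by the 2-fold gap. Mos, the kinase that holds the egg in metaphase arrest, had 289 FPKM in untreated, 43.1 in knockdown and 18.2 in H3.3 mRNA embryos of the NT set and was listed at 0 in both SCNT libraries. Zar1, an oocyte protein that binds maternal RNA, had 639, 173 and 64.4 FPKM in the NT libraries, against 5.76 and 18.4 FPKM in the SCNT libraries. Gdf9, the oocyte's growth factor for its follicle, had 1332, 550 and 330 FPKM in the NT libraries, against 81.2 and 177 FPKM in the SCNT libraries, short of the gap. H1foo, the oocyte linker histone, had 1925, 351 and 426 FPKM in the NT libraries, against 74.8 and 180 FPKM in the SCNT libraries, also short of it. In these 4 genes the untreated library was the highest, and the luciferase library was the lowest or, for Mos, at 0 with the H3.2 mRNA library. Gdf9 and H1foo were picked after their values were seen.

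Genes of the 2-cell stage and genome activation had 6 of 29 tested (20.7%) with NT higher and 1 (3.40%) with SCNT higher. The shares of all genes were 8.48% and 11.9%. The list median was 0.45, and it ranged from 0.31 without the H3.3 mRNA library to 0.61 without the knockdown library. Hspa1a and Hspa1b, which are among the 6, are also counted in the heat shock list given further on. Obox1, an oocyte and early embryo homeobox gene, had 351 FPKM in untreated, 138 in knockdown and 77.9 in H3.3 mRNA embryos of the NT set, against 14.6 and 27.6 FPKM in luciferase and H3.2 mRNA embryos of the SCNT set. Obox2, its close relative, had 328, 116 and 72.2 FPKM in the NT libraries, against 9.52 and 33.3 FPKM in the SCNT libraries, and lost its 2-fold gap with a pseudocount of 10. Obox1 and Obox2 are similar in sequence, so their reads may have been split between them.

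Regulators of pluripotency had no common direction. Of 27 tested, 1 (3.70%) had NT higher and 5 (18.5%) had SCNT higher, against 8.48% and 11.9% of all genes, and their median of -0.19 was close to the all-gene -0.23. That median was 0.36 without the knockdown, 0.25 without the luciferase and -0.76 without the H3.3 mRNA library. Gdf3, a TGF-beta family ligand of the early embryo, was listed at 0 in every NT library, against 19 FPKM in luciferase and 6.02 FPKM in H3.2 mRNA embryos. Esrrb, an orphan nuclear receptor of embryonic stem cells, had 1.29 FPKM in untreated, 0 in knockdown and 13.9 in H3.3 mRNA embryos of the NT set, against 66.5 and 32.5 FPKM in the SCNT set. Both lost the 2-fold gap with a pseudocount of 10. Pou5f1, the central regulator, overlapped, with 1250, 479 and 391 FPKM in the NT libraries, against 849 and 157 FPKM in the SCNT libraries. Of 31 trophectoderm and primitive endoderm genes tested, 0 had NT higher and 4 (12.9%) had SCNT higher, and the counts were 5 and 6 without the knockdown library. Col4a2, a basement membrane collagen, was at 0 in every NT library, against 149 and 2.16 FPKM in the SCNT libraries, which themselves differed widely. Col4a2 lost the 2-fold gap with a pseudocount of 10 and after quantile normalization.

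Imprinted genes, expressed from one parental allele, had 3 of 27 (11.1%) with NT higher and 9 (33.3%) with SCNT higher. The shares of all genes were 8.48% and 11.9%, and the list median was -0.90. With the length and GC trend removed the counts of imprinted genes were 5 and 4. Ndn, a paternally expressed gene, was listed at 0 in every NT library, against 4.99 FPKM in luciferase and 11.4 FPKM in H3.2 mRNA embryos. Ndn lost the 2-fold gap with a pseudocount of 10. Gnas, which encodes a G protein subunit, had 184 FPKM in untreated, 153 in knockdown and 273 in H3.3 mRNA embryos of the NT set, against 725 and 354 FPKM in the SCNT set. Cd81, a tetraspanin, was on the other side, with 1395, 388 and 252 FPKM in the NT libraries, against 211 and 204 FPKM in the SCNT libraries. Gnas and Cd81 were chosen after their values were seen, to show both directions.

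**Figure D4:**
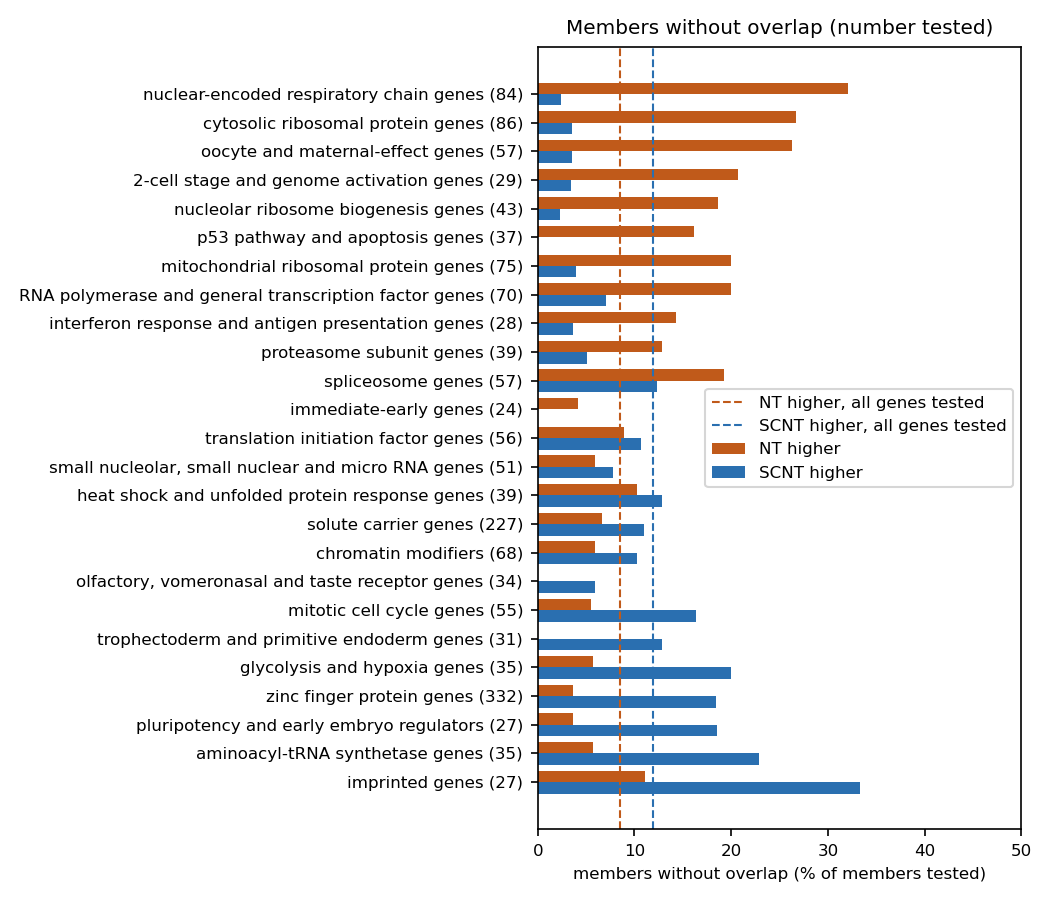
Share of tested members of each gene list with 20 or more tested members whose NT and SCNT values did not overlap, with NT higher in orange and SCNT higher in blue; dashed lines are the shares over all genes tested, 8.48% and 11.9%. Respiratory chain genes had the highest NT-higher share, 32.1%, and imprinted genes the highest SCNT-higher share, 33.3%.

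Respiratory chain and ribosomal protein genes had more members higher in NT libraries. Over all genes, 8.48% had NT higher and 11.9% had SCNT higher. Of 84 nuclear-encoded respiratory chain genes, 27 (32.1%) had NT higher and 2 (2.40%) had SCNT higher, with a median of 0.67, and 5 reached the 2-fold gap. That median was 0.29 without the H3.2 mRNA library, 0.44 without the knockdown library and 1.10 without the luciferase library. Ndufa13, a complex I subunit, had 596 FPKM in untreated, 1041 in knockdown and 720 in H3.3 mRNA embryos of the NT set, against 210 and 165 FPKM in luciferase and H3.2 mRNA embryos of the SCNT set. Cox6b2, a testis form of a cytochrome oxidase subunit, had 450, 215 and 137 FPKM in the NT libraries, against 33.7 and 20.9 FPKM in the SCNT libraries. Of 86 cytosolic ribosomal protein genes, 23 (26.7%) had NT higher and 3 (3.50%) had SCNT higher, with a median of 0.69. This lean rested on the H3.2 mRNA library: without it the counts were 23 and 23 and the median 0.09, and without the luciferase library they were 75 and 3 and 1.37. Summed over the family, NT libraries had 245462, 347331 and 243386 FPKM, against 304739 FPKM in the luciferase and 129302 FPKM in the H3.2 mRNA library, so the sums overlapped. Only Rps23 among them reached the 2-fold gap. Rpl3, a large subunit protein, was on the SCNT side, with 1577, 1484 and 1332 FPKM in the NT libraries, against 2534 and 1743 FPKM in the SCNT libraries. Mitochondrial ribosomal protein genes had 15 of 75 (20%) with NT higher and 3 (4.00%) with SCNT higher, with 0 at the 2-fold gap and a median of 0.56 that was 0.20 without the knockdown and 0.30 without the H3.2 mRNA library. The medians of these 3 lists stayed above that of all genes under quantile normalization, median-of-ratios scaling and removal of the length and GC trend, at 0.33 to 0.92 above it.

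Lists of nuclear machinery depended on the scaling or on 1 library. Their shares are to be set beside 8.48% and 11.9% of all genes. Of 43 nucleolar ribosome biogenesis genes, 8 (18.6%) had NT higher and 1 (2.30%) had SCNT higher, but the list median was above that of all genes by 0.21 and below it by 0.16 after quantile normalization, and without the H3.3 mRNA library the counts were 10 and 14. Rrp9, a protein of the U3 snoRNP, had 857 FPKM in untreated, 1546 in knockdown and 1409 in H3.3 mRNA embryos of the NT set, against 349 and 402 FPKM in luciferase and H3.2 mRNA embryos of the SCNT set. Its 2-fold gap was lost under both scalings. RNA polymerase and general transcription factor genes had 14 of 70 (20%) with NT higher and 5 (7.10%) with SCNT higher, and 20 and 18 without the H3.3 mRNA library. Polr2j, a subunit of RNA polymerase II, had 2881, 3702 and 2007 FPKM in the NT libraries, against 972 and 955 FPKM in the SCNT libraries. Polr2j lost the 2-fold gap after quantile normalization. Its neighbour by function Taf3, a subunit of TFIID, had 4.64, 22.8 and 23.7 FPKM in the NT libraries, against 53.1 and 67.9 FPKM in the SCNT libraries. Taf3 lost the 2-fold gap with a pseudocount of 10. Snhg12, a host gene of small nucleolar RNAs other than the 3 described above, had 1055, 686 and 566 FPKM in the NT libraries, against 154 and 174 FPKM in the SCNT libraries.

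Zinc finger protein genes were the largest list on the SCNT side. Of 332 tested, 12 (3.6%) had NT higher and 61 (18.4%) had SCNT higher, against 8.48% and 11.9% of all genes. Their median was -0.79. After quantile normalization the counts were 20 and 44, and with the length and GC trend removed they were 26 and 46. The median stayed below that of all genes with any 1 library left out, at -1.19 without the H3.3 mRNA and -0.38 without the H3.2 mRNA library. Zfp69 had 5.13 FPKM in untreated, 0 in knockdown and 6.82 in H3.3 mRNA embryos of the NT set, against 103 and 92.1 FPKM in luciferase and H3.2 mRNA embryos of the SCNT set. Zfp493, Zfp839 and Zfp677 were listed at 0 in every NT library and lay between 11.4 and 21.3 FPKM in the SCNT libraries. Aminoacyl-tRNA synthetase genes, which charge tRNAs, had 2 of 35 (5.70%) with NT higher and 8 (22.9%) with SCNT higher, none at the 2-fold gap, and 3 and 4 with the length and GC trend removed. Their median of -0.34 was -0.08 without the knockdown library.

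Cell cycle genes had members on both sides, where 8.48% of all genes had NT higher and 11.9% had SCNT higher. Of 55 mitotic cell cycle genes, 3 (5.50%) had NT higher and 9 (16.4%) had SCNT higher, and with the length and GC trend removed the counts were 8 and 5. Pttg1, the separase inhibitor securin, had 1871 FPKM in untreated, 2467 in knockdown and 1052 in H3.3 mRNA embryos of the NT set, against 324 and 310 FPKM in luciferase and H3.2 mRNA embryos of the SCNT set. The NT minus SCNT difference of Pttg1 was 2.41 on the log2 scale (limma SE 0.52, adjusted p = 0.869). Wee1, the kinase that restrains entry into mitosis, had 1.71, 1.83 and 24.8 FPKM in the NT libraries, against 52.9 and 61.4 FPKM in the SCNT libraries. Wee1 lost the 2-fold gap with a pseudocount of 10. Of 35 glycolysis and hypoxia genes, 2 (5.70%) had NT higher and 7 (20%) had SCNT higher, with 1 at the 2-fold gap, and the median of -0.47 was 0.22 without the luciferase library. Pdia4, an endoplasmic reticulum chaperone, had 119, 52.8 and 106 FPKM in the NT libraries, against 396 and 272 FPKM in the SCNT libraries.

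Lists for stress, chromatin and immunity differed among themselves, and their shares are to be read against 8.48% and 11.9% of all genes. Of 68 chromatin modifiers, 4 (5.90%) had NT higher and 7 (10.3%) had SCNT higher, and 10 and 7 without the knockdown library. Tet2, an enzyme that oxidises methylated cytosine, had 0, 0 and 0.610 FPKM in the NT libraries, against 10.6 and 5.58 FPKM in the SCNT libraries. Tet2 lost the 2-fold gap with a pseudocount of 10 and after quantile normalization. Of the heat shock and unfolded protein response list, 4 of 39 (10.3%) had NT higher and 5 (12.8%) had SCNT higher. Both shares were close to those of all genes. Of 37 genes of the p53 pathway and apoptosis, 6 (16.2%) had NT higher and 0 had SCNT higher, none at the 2-fold gap, and 6 and 5 without the untreated library. Interferon and antigen presentation genes had 4 of 28 (14.3%) with NT higher and 1 (3.6%) with SCNT higher, with a median of 0.73 that ranged from 0.31 without the untreated to 1.37 without the knockdown library. Bst2, an interferon-induced membrane protein, had 271, 887 and 224 FPKM in the NT libraries, against 97.9 and 85.2 FPKM in the SCNT libraries. Irf7, the other gene of this list past the 2-fold gap, was higher in SCNT and had the wider gap. It was listed at 0 in every NT library, against 5.94 and 4.68 FPKM in luciferase and H3.2 mRNA embryos. Irf7 lost the 2-fold gap with a pseudocount of 10. Immediate-early genes, which respond to handling and stress, had 1 of 24 (4.2%) with NT higher and 0 with SCNT higher.

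The remaining lists had members on both sides or few members tested. Spliceosome genes had 11 of 57 (19.3%) with NT higher and 7 (12.3%) with SCNT higher. U2af2, which reads the polypyrimidine tract, had 45.5, 41.5 and 36.7 FPKM in the NT libraries, against 15.3 and 8.28 FPKM in the SCNT libraries. U2af2 lost the 2-fold gap with a pseudocount of 10. Solute carrier genes had 15 of 227 (6.6%) with NT higher and 25 (11%) with SCNT higher, of which 3 and 9 reached the 2-fold gap, and 36 and 37 without the knockdown library. Slc30a3, a zinc transporter, had 469, 34.3 and 14.1 FPKM in the NT libraries and was listed at 0 in both SCNT libraries. Proteasome subunits had 5 of 39 (12.8%) with NT higher and 2 (5.1%) with SCNT higher, against 8.48% and 11.9% of all genes. Translation initiation factors had 5 (8.9%) and 6 (10.7%) of 56, close to the shares of all genes. Host and long noncoding RNA genes had 3 (17.6%) and 1 (5.9%) of 17. Replication-dependent histone genes had 1 of 17 (5.9%) with NT higher and 0 with SCNT higher, and olfactory, vomeronasal and taste receptor genes 0 and 2 (5.9%) of 34. Of 8 keratin and 6 defensin genes tested, 0 were without overlap in either direction.

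Markers of cells that could have supplied or accompanied the nuclei had overlapping sums in the label sets for fibroblasts, cumulus cells, blood and neurons, and a higher sum in NT libraries for Sertoli cells. Of 37 fibroblast and mesenchymal markers in the files, 17 were at 0 in every library, among them Col1a1, Col3a1 and Dcn, and the summed level was 196 to 406 FPKM in NT libraries, against 111 and 392 FPKM in SCNT libraries. Of 33 cumulus and granulosa markers, 13 were at 0 in every library, Fshr, Has2 and Cyp11a1 included, and the sum was 1322 to 1845 FPKM in NT libraries, against 1425 and 1934 FPKM in SCNT libraries. Of 19 Sertoli cell markers, 5 were at 0 in every library, including Wt1, and the sum was 8677 to 10062 FPKM in NT libraries, against 5326 and 6153 FPKM in SCNT libraries. That Sertoli sum was nearly all Ctsl, a lysosomal protease that many cell types make, at 8497, 9759 and 8123 FPKM in the NT libraries, against 4790 and 5732 FPKM in the SCNT libraries. Blood and endothelial markers had 22 of 36 at 0 in every library, Ptprc among them, and the sums overlapped, at 1123 to 2024 FPKM in NT libraries against 1234 and 2078 FPKM in SCNT libraries. Of its 13 tested members, 5 (38.5%) had NT higher and 1 (7.7%) had SCNT higher, against 8.48% and 11.9% of all genes. Among the NT-higher ones, Hba-a1, an alpha globin, had 9.46, 49.0 and 15.8 FPKM in the NT libraries, against 1.95 and 0 FPKM in the SCNT libraries. Hba-a1 lost the 2-fold gap with a pseudocount of 10. Of 22 neural markers, 14 were at 0 in every library, the sum was 106 to 385 FPKM in NT libraries, against 120 and 132 FPKM in SCNT libraries, and 0 of 6 tested were without overlap. The part of such cells in the separated genes was not tested.

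Sex-linked genes were read as a check on the source of the embryos. Xist, the RNA that silences an X chromosome, had 0 FPKM in untreated, 2.02 in knockdown and 3.45 in H3.3 mRNA embryos of the NT set, against 12.6 FPKM in luciferase and 8.99 FPKM in H3.2 mRNA embryos of the SCNT set. It was separated by the 2-fold gap in the main values and lost that gap with a pseudocount of 10 and after quantile normalization. Tsix, its antisense partner, had 6.95 FPKM in the luciferase library and at most 0.0400 FPKM elsewhere, and since no source used here says that strand was read, reads of Xist and Tsix cannot be told apart. All 8 Y-linked genes in the files, Ddx3y, Eif2s3y, Kdm5d, Uty, Zfy1, Zfy2, Sry and Usp9y, were listed at 0 in every library.

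The sets could be compared in pairs that share no library. The control pair was untreated NT minus luciferase SCNT, and the add-back pair was H3.3 mRNA NT minus H3.2 mRNA SCNT. In the control pair 1759 genes (13.4%) were at least 4-fold higher in NT and 3090 (23.5%) in SCNT. In the add-back pair the numbers were 1101 (8.38%) and 1661 (12.6%). Of the 1759 genes, 202 were also 4-fold higher in NT in the add-back pair, which is 11.5% of the first list and 18.3% of the second, while 254 (14.4%) were 4-fold higher in SCNT there. Of the 3090 genes, 528 were also 4-fold higher in SCNT in the add-back pair, which is 17.1% of the first list and 31.8% of the second, while 312 (10.1%) were 4-fold higher in NT there. The shares that kept direction were above those of all genes in the add-back pair, but so were the shares that turned, and among the NT-higher genes more turned than kept direction. Over all 13144 genes the differences of both pairs had a Pearson r of 0.04.

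The knockdown library set against the H3.2 mRNA library gave larger shares that kept direction, but the shares of all genes were larger there too. There 1198 genes (9.11%) were 4-fold higher in NT and 2558 (19.5%) in SCNT. Of the control pair's genes, 242 (13.8%) of the NT-higher and 823 (26.6%) of the SCNT-higher kept their direction. Both shares were above those of all genes, 9.11% and 19.5%. In the opposite direction, 306 (17.4%) of the NT-higher and 285 (9.22%) of the SCNT-higher genes were 4-fold apart. The first of these shares was below the 19.5% of all genes, and the second was close to the 9.11% of all genes. The correlation with the control pair was 0.10 over all genes tested.

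**Figure D5:**
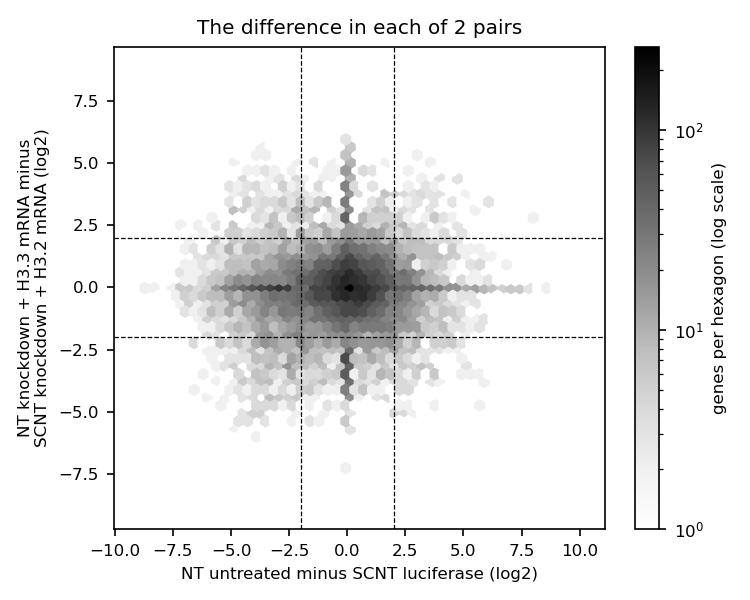
Difference of each of the 13144 tested genes in the control pair (x axis, NT untreated minus SCNT luciferase, log2) and in the add-back pair (y axis, NT with H3.3 mRNA minus SCNT with H3.2 mRNA, log2), with shade for the number of genes on a log scale and dashed lines at a 4-fold difference. The cloud has no visible slope, and the Pearson r was 0.04.

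The genes nearest the edge of the 2-fold gap show how fine that edge is. Polr2h, another subunit of the RNA polymerases, was just inside on the NT side, with 1656, 2528 and 2087 FPKM in the NT libraries, against 757 and 825 FPKM in the SCNT libraries. Polr2h lost the 2-fold gap with a pseudocount of 10 and under both scalings. Vwa1, an extracellular matrix protein, was just outside, with 167, 28.7 and 26.7 FPKM in the NT libraries, against 2.17 and 12.9 FPKM in the SCNT libraries. On the SCNT side Padi2, a protein deiminase, was just inside, at 0 in every NT library, against 1 and 4.29 FPKM in the SCNT libraries, and Nrp1, a receptor for semaphorins, was just outside, with 0.930, 0 and 0 FPKM in the NT libraries, against 2.85 and 7.93 FPKM in the SCNT libraries.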

How the data were processed

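RNA was measured in 5 libraries of 4-cell mouse embryos, read as single reads of 51 bases from Illumina TruSeq libraries per the labels' protocols. The authors deposited 1 FPKM value per gene and library; alignment with TopHat, FPKM from Cufflinks and the mm9 build are named in the submitters' processing notes, without versions. FPKM is relative to length and to each library's total, so abundant transcripts shift all others, and depth is unknown. No source used here says how strand was handled.

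The comparison used log2(FPKM + 1), a scale that shrinks differences of low genes, for genes whose mean was 1 FPKM or more. NT minus SCNT was fitted with limma 3.58.1 in R 4.3.3 (eBayes with trend, Benjamini-Hochberg adjustment over all genes tested), and separation needed a gap of at least 1; the code was tested on simulated data. Lengths came from GENCODE vM21 and microRNA sequences from RefSeq. The genes named were, in each direction, the 15 widest gaps above 0 in every library and the 5 widest among the rest, clone and model names left out, plus up to 4 separated members per list (otherwise the 2 largest differences), H3f3a, H3f3b and sex-linked genes; embryo markers, Mir719, Gdf9, H1foo, Gnas, Cd81, Rpl3 and the genes at the edge of the gap were added after their values were seen. Members and the 36 lists were chosen with earlier results of these data known. Transcripts of the mitochondrial genome were not analysed here. Figures were drawn with matplotlib 3.10.9. Alternatives were other pseudocounts, filters, scalings, gap sizes, limma settings and each library left out.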

Additional observations from a re-analysis of the deposited data

How the results depend on the processing

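Of the 84 named separated genes, 51 stayed separated with a pseudocount of 10 and under both scalings. The 2-fold gap was lost at 29 of the 84 with a pseudocount of 10. It was lost at 12 after quantile normalization and at 3 after median-of-ratios scaling. A pseudocount of 0.1, leaving out a library and, for the 66 with such a mean, a mean of at least 10 FPKM cannot remove a gap. All of these genes stayed separated there by construction. The other alternatives were not run on single genes. The imbalance between directions turned where only higher genes were kept and, for genes without overlap, with the length and GC trend removed (1699 NT higher and 1185 SCNT higher). It did not turn for separated genes with that trend removed (211 NT higher and 364 SCNT higher). With a pseudocount of 10, separated genes numbered 113 with NT higher and 113 with SCNT higher, against 190 and 513. With no minimum gap they numbered 1115 and 1569, and with a gap of at least 2 they numbered 42 and 228. At a mean of at least 10 FPKM they numbered 171 and 150, and where every library was above 0 they numbered 140 and 69. Leaving out 1 library gave 364 to 622 NT-higher and 767 to 1398 SCNT-higher genes, since fewer libraries are easier to separate. Limma calls ranged from 0 to 2 with NT higher and from 0 to 601 with SCNT higher when 1 library was left out. They were 541 without the luciferase and 601 without the H3.2 mRNA library, of which 533 and 594 were at 0 in every NT library and so had no spread among the samples that estimate it; the lone SCNT library was assumed to vary like the NT set. With H3.3 knockdown as a covariate, limma called 0 genes in either direction (345 and 338 at an unadjusted p under 0.05).

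The share of the control pair's NT-higher genes that kept direction in the add-back pair (11.5%) was 13.4% with a pseudocount of 0.1, 3.70% with 10, 6.96% for genes above 0 in every library, 14.8% after quantile normalization, 13.8% with the knockdown library in place of the H3.3 mRNA library and 21.3% at 2-fold. The SCNT-higher share (17.1%) was 22%, 3.53%, 6.25%, 13.2%, 26.6% and 27.4% in the same order, and 13.0% at a mean of at least 10 FPKM. The cause of these moves was not tested; the share of all genes moved with them and stayed below in each setting. The all-gene median difference of -0.23 was -0.14 after quantile normalization, -0.04 for genes above 0 in every library and 0.05 with the length and GC trend removed. No paired analysis was possible because each treatment has 1 library and the labels give no replicate numbers. Depth is unknown, so no detection limit can be given for genes listed at 0.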
